A study of Rattus norvegicus with 92 samples.

Results

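Gene expression was compared in the nasal epithelium of rats that had breathed acrolein or air. Of the 92 samples of the series, 11 were nasal: 5 from air-exposed and 6 from acrolein-exposed animals. The table for this tissue lists 20508 rows, each an Ensembl identifier (19719 of transcripts and 789 of genes), and 20289 of them, those above 0 in 2 or more nasal samples, were tested. At the edge of that limit, 170 rows were above 0 in exactly 2 samples, 128 in exactly 1 sample and 91 in none. The table does not pair identifiers with gene symbols, so rows are described by level, by sample and by the other tissues in which they were found, and 4 are given by identifier.

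The animals were adult male Wistar-Kyoto rats, and the labels name no other treatment in either group. Exposure was nose-only and lasted 4 h in both groups. The acrolein concentration rose in steps over the first 30 min and was then held at 3.16 ppm for 3.5 h, and tissues were taken immediately afterwards. Samples are named here by exposure and by the number in their label: air 2, 4, 5, 6 and 8, and acrolein 9, 10, 11, 12, 14 and 15. Some labels also carry a letter R (air 4, 5 and 6, acrolein 9, 10 and 11) whose meaning was not given in the sources used here, so p-values measure the spread between these samples, part of which may be technical.

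Acrolein is a highly reactive unsaturated aldehyde of smoke and combustion exhaust that binds to thiol and amine groups of proteins and to glutathione. The nasal lining is the first tissue that an inhaled, water-soluble irritant meets, and in the rat, which breathes only through the nose, it takes up much of such a vapour. It holds respiratory epithelium, with ciliated and secretory cells, and olfactory epithelium, with sensory neurons, supporting cells and glands. In a bulk sample of such a mixture, fewer cells of a type and less RNA per cell cannot be told apart.

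Values are normalized counts, that is, the reads counted in each row, scaled by the size factor of the library. Whole reads could be recovered from them, and the libraries held 12232645 to 21100321 reads, with 18728 to 19400 rows above 0 in each. Because rows could not be paired with marker genes by name, the tissue label was not checked with markers. As a description by level, 93 rows had a mean of at least 500 normalized counts in nasal epithelium. Their mean in every one of the 7 other tissues was below 1 part in 20 of the nasal mean. They were chosen from these same samples, so they are no test of the label. These nasal-restricted rows carried 5.33 to 16.98% of the normalized counts in the air samples and 7.18 to 23.9% in the acrolein samples. Some libraries stood apart. Acrolein 11 lay far from the other samples on the second principal component, which held 19.2% of the variance, and air 5 lay apart from the other air samples on the same axis. On the first component, with 30.3% of the variance, acrolein 11 and acrolein 14 lay on the side of most air samples, and air 4 lay among the acrolein samples.

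After acrolein, far more rows were called higher than lower. With limma on log2(normalized count + 1) and Benjamini-Hochberg adjustment, 132 rows, or 0.651% of those tested, passed both limits of a call, which were an adjusted p no higher than 0.1 and a change past 1.2-fold in either direction. Of these, 120 were higher after acrolein, or 0.591% of the tested rows, and 12 were lower, or 0.0591%. Rises thus made up 90.9% of the calls. The median log2 fold change over all tested rows was -0.0019. An unadjusted p under 0.05 was seen in 2481 rows, 12.2% of those tested.

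The number of calls rested on single libraries and on the tool. It was 58 without air 5, 60 without acrolein 10, 64 without acrolein 12, 68 without acrolein 15, 73 without acrolein 9, 76 without air 6 and 86 without air 2, and it was 255 without air 4 and 285 without acrolein 11. Rises outnumbered falls in each of these fits, and without acrolein 11 all 120 rises were called again, while 104 of them were without acrolein 14. In the limma fits that left out 1 of the 11 samples, 54 of the 120 rises were called every time, and each rise was called at least once. Only 1 of the 12 falls was called in all 11 of these fits.

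**Figure D1:**
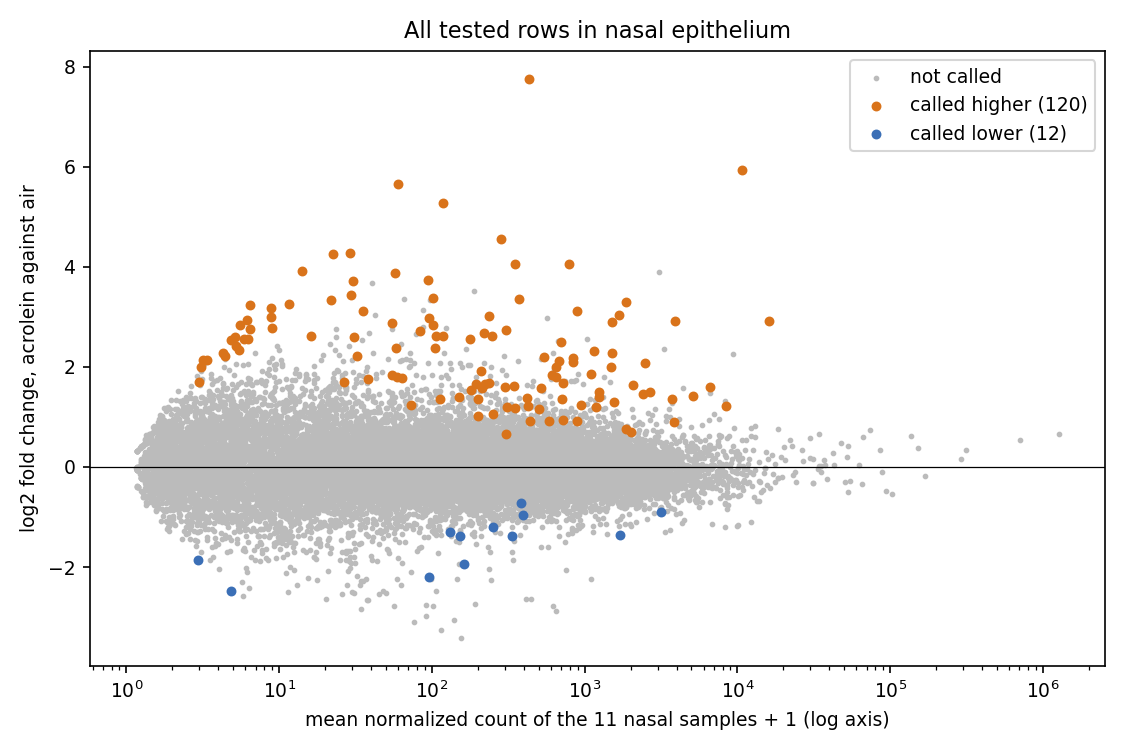
Log2 fold change (vertical) against the mean normalized count over the 11 nasal samples plus 1 (horizontal, log axis) for all 20289 tested rows. The 120 rows called higher (orange) lie across the whole range of levels, the 12 called lower (blue) reach -2.48 at most, and many rows with changes as large were not called (grey).

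The rises were large and mostly clean between the groups. Their median log2 fold change was 2.20, with a range from 0.66 to 7.76: 26 rows exceeded 3, another 41 lay between 2 and 3, 45 lay between 1 and 2, and 8 were below 1. In 107 of the 120 every acrolein sample was above every air sample. Over all tested rows that order was met by 181, or 0.892%. Calling the rises on this same contrast favours that order, so it is no separate support for them. The median of their mean levels went from 78.3 normalized counts in air to 334 after acrolein.

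Rows of every abundance were among the rises. In air, 33 averaged under 10 normalized counts, 31 lay from 10 to 100, 46 from 100 to 1000, and 10 at 1000 or more. The share of tested rows called higher was 0.525% of rows with a mean under 10 over the 11 samples, 0.509% from 10 to 100, 0.604% from 100 to 1000 and 0.748% above that. While 20 of the rises averaged over 500 normalized counts in air, 51 did after acrolein.

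A group of 23 rises was at or under the floor of 3 reads in every air sample. After acrolein their means ran from 3.36 to 787 normalized counts with a median of 8.57, and the second highest was 107. Only 8 of the 23 reached a mean of 10. DESeq2, which works on the recovered reads, called 21 of the 23 higher, against 1.66% of all rows to which it gave an adjusted p. The 23 had already been called by limma on the same samples, so this is no separate support for them.

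ENSRNOT00000044788 had the largest log2 fold change of the rises. In air, its normalized count was 1.64 in sample 2, 1.88 in sample 4 and 0 in samples 5, 6 and 8. After acrolein it was 946 in sample 9, 1832 in sample 10, 20.8 in sample 11, 923 in sample 12, 33.9 in sample 14 and 967 in sample 15. The groups were fully separate, which the rule for naming rows requires, but the acrolein samples fell at 2 levels. Samples 11 and 14 were far below the other 4. The mean was 787 ± 682 (SD, n = 6) after acrolein against 0.703 ± 0.967 (SD, n = 5) in air. With 3 reads per library as the floor in air, or 3.12 normalized counts, the acrolein mean was at least 252-fold higher. This bound holds for the mean, which the 4 high samples carried, and not for samples 11 and 14. On the log2(value + 1) scale the fitted change was 7.76 with a standard error of 1.11 (limma, Benjamini-Hochberg adjusted p = 0.00787), and the row was called in all 11 fits that left out a sample. The size of this fitted change depends on the pseudocount. In air-exposed tissues other than nose this row was found in muscle, with a mean of 160 normalized counts, and averaged at most 1.21 in the other 6. Muscle-restricted rows were higher in acrolein 14, where this row was low, than in the other acrolein samples, as given below. Whether muscle in the samples had a part in the level of this row was not tested.

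ENSRNOT00000019192 was the second rise named under the rule and was among the abundant transcripts of the exposed tissue. Its normalized count in air was 236 in sample 2, 222 in sample 4, 331 in sample 5, 269 in sample 6 and 346 in sample 8. After acrolein it was 17469 in sample 9, 27196 in sample 10, 5592 in sample 11, 24520 in sample 12, 13212 in sample 14 and 27966 in sample 15. Even the lowest exposed sample, acrolein 11, stood far above the highest air sample, and samples 11 and 14 were again the lowest of the exposed group. The mean was 19326 ± 8866 (SD, n = 6) against 281 ± 55.6 (SD, n = 5), a log2 fold change of 5.94 with a standard error of 0.36 (limma, Benjamini-Hochberg adjusted p = 1.09e-05). Unlike the first row, it was present at moderate level in all 7 other tissues of air-exposed rats, from 69.3 normalized counts in hypothalamus to 432 in lung.

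**Figure D2:**
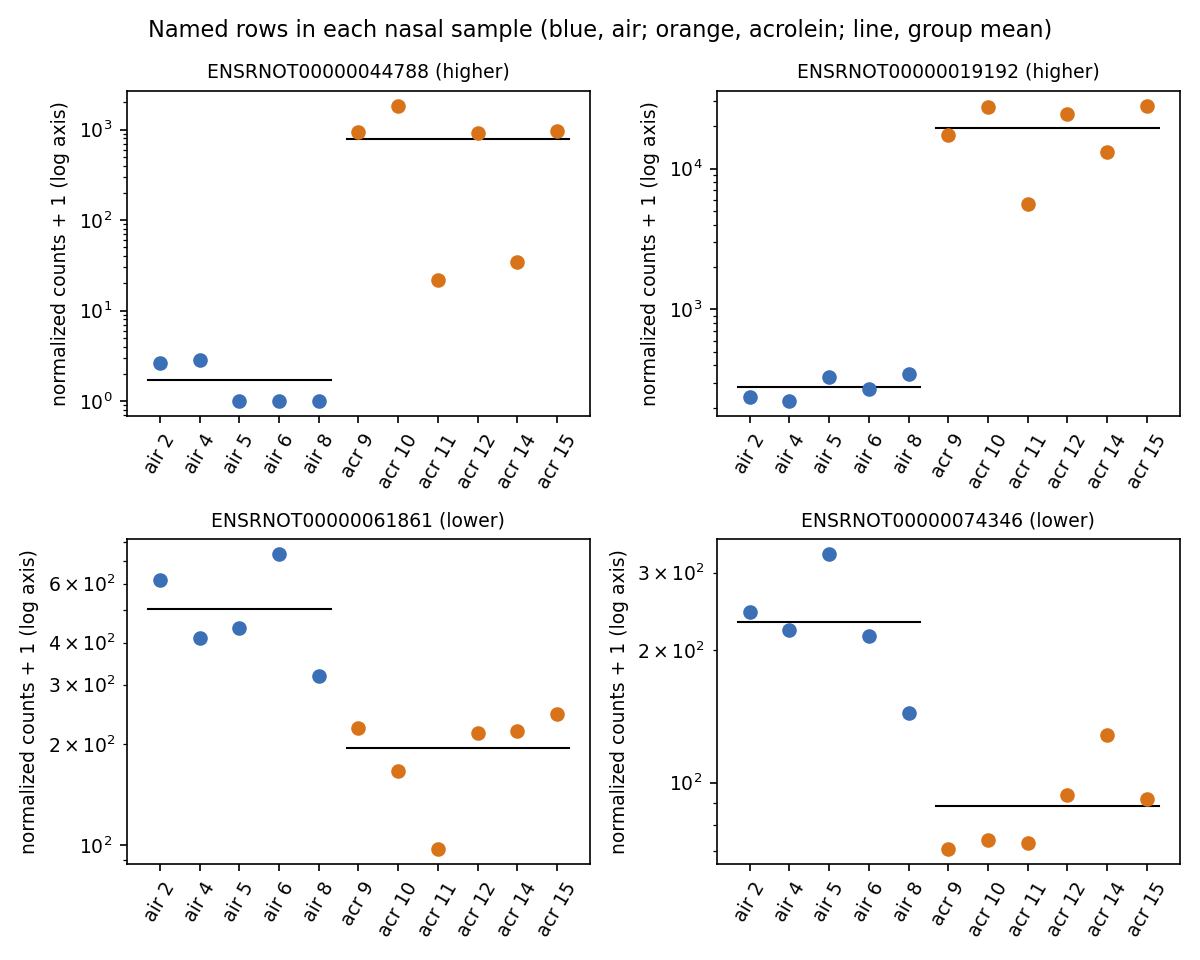
Normalized count plus 1 (log axis) of the 4 named rows in each nasal sample, with air in blue, acrolein in orange and the group mean as a line. In both upper panels, the rises, acrolein 11 and 14 are the lowest of the exposed samples. In each of the 4 panels the groups do not overlap, which the rule for naming rows requires.

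A few rows carried most of the added signal. Summed over the 120 rises, the mean normalized count grew by 124964, of which the 2 rows with the largest gains supplied 33.7%, with 15.2% from ENSRNOT00000019192. The 10 rows with the largest gains held 61.5% of it. Together the rises took up 0.222 to 0.305% of the normalized counts of the air samples. In the exposed samples they took up 0.836% in acrolein 9, 1.32% in acrolein 10, 0.545% in acrolein 11, 1.11% in acrolein 12, 0.844% in acrolein 14 and 1.21% in acrolein 15. The lowest exposed sample thus lay above the highest air sample, and the exposed samples differed among themselves more than the air samples did. These shares describe rows chosen by the same contrast and are no test of it.

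The same exposed samples tended to be high or low across the rises. The median log2 difference from the mean of the air samples was 2.87 in acrolein 10, 2.37 in 15, 2.34 in 12, 2.16 in 9, 1.68 in 14 and 1.26 in 11, while the air samples lay between -0.22 and 0.18. Acrolein 10 was the highest of the 6 exposed samples in 64 of the 120 rises, or 53.3%, and acrolein 11 was the lowest in 74, or 61.7%. Over all tested rows the same samples were highest and lowest in 13.5% and 25.4%. In 73 of the rises, or 60.8%, samples 11 and 14 were the lowest pair, which was the case in 13.6% of all tested rows. The SD of the log2 values had a median of 0.73 in the acrolein samples and 0.46 in the air samples. It was larger after acrolein in 80 of the 120 rises (66.7%), against 50.5% of all tested rows. The choice of raised rows can favour this, since 23 of them were at or under 3 reads in every air sample, and its part was not tested.

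**Figure D3:**
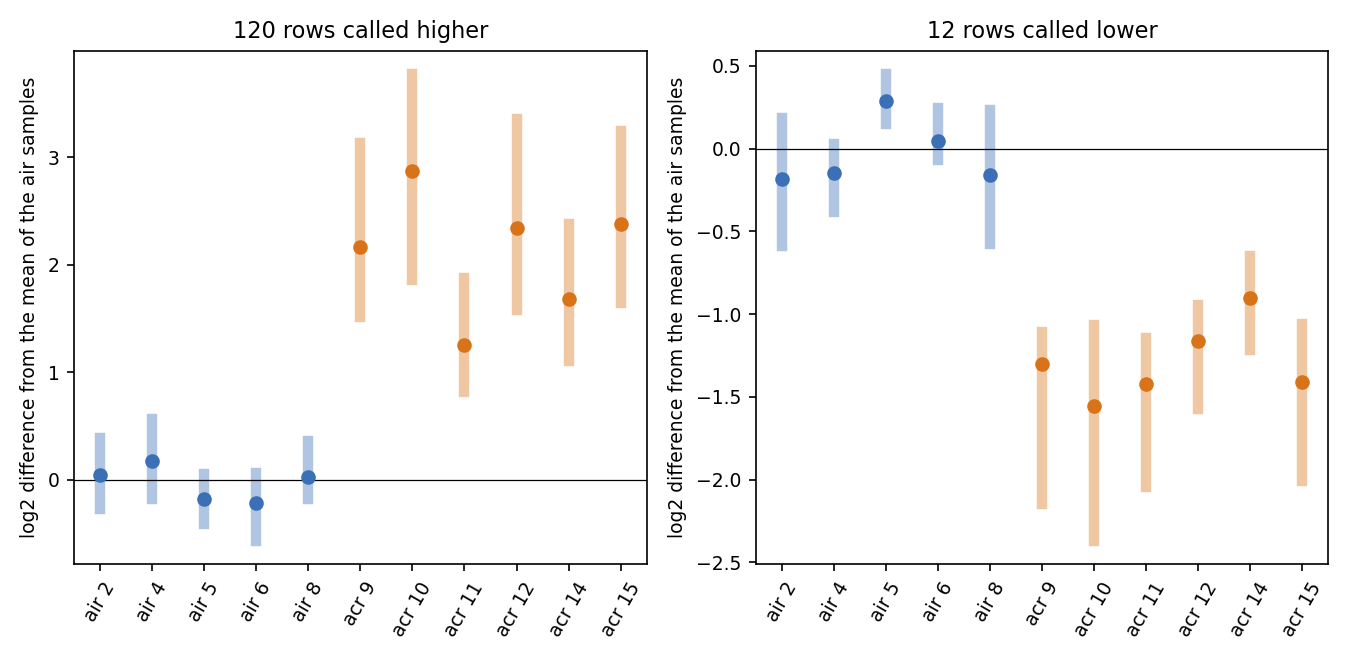
Log2 difference of each sample from the mean of the air samples (vertical), as the median (point) and the interquartile range over the rows (bar), for the 120 rows called higher (left) and the 12 called lower (right), with air in blue and acrolein in orange. Acrolein 10 is highest and acrolein 11 lowest of the exposed samples among the rises, while acrolein 14 is nearest to air among the falls.

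The falls were fewer and smaller. Their log2 fold changes ran from -2.48 to -0.72 with a median of -1.37, and 9 of the 12 were below -1. The groups did not overlap in 7 of them, against 98 of all tested rows (0.483%) with every exposed sample below every air sample. Calling the falls on this same contrast favours such separation. The median of their mean levels went from 313 normalized counts in air to 120 after acrolein. Together they made up 0.0441 to 0.0730% of the normalized counts in the air samples and 0.0198 to 0.0348% in the exposed ones. Acrolein 14 changed least, with a median log2 difference from air of -0.90, and acrolein 10 most, with -1.55.

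ENSRNOT00000061861 was the first of the falls named under the rule, which asks for separate groups and a mean of at least 20. Its normalized count in air was 612 in sample 2, 411 in sample 4, 442 in sample 5, 734 in sample 6 and 316 in sample 8, and after acrolein it was 222 in sample 9, 165 in sample 10, 96.0 in sample 11, 215 in sample 12, 218 in sample 14 and 244 in sample 15. The lowest air sample was above the highest exposed one. The means were 503 ± 167 (SD, n = 5) and 193 ± 54.2 (SD, n = 6), a log2 fold change of -1.38 with a standard error of 0.28 (limma, Benjamini-Hochberg adjusted p = 0.0632). It was called in 5 of the 11 fits that left out a sample and not without air 2, air 5, air 6, acrolein 9, acrolein 10 or acrolein 12, where the adjusted p (limma, Benjamini-Hochberg) ran from 0.117 to 0.178. This row was far higher in liver, with a mean of 8266 normalized counts in air-exposed rats, than in nose.

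ENSRNOT00000074346 had normalized counts in air of 244 in sample 2, 221 in sample 4, 330 in sample 5, 215 in sample 6 and 143 in sample 8. After acrolein the counts were 69.5 in sample 9, 73.0 in sample 10, 71.8 in sample 11, 92.6 in sample 12, 127 in sample 14 and 90.9 in sample 15. The groups were separate, with acrolein 14 close to air 8. The means were 230 ± 67.2 (SD, n = 5) and 87.5 ± 22.0 (SD, n = 6), a log2 fold change of -1.37 with a standard error of 0.25 (limma, Benjamini-Hochberg adjusted p = 0.0343). The call was lost without air 2, air 5 or acrolein 10, with an adjusted p (limma, Benjamini-Hochberg) of 0.105, 0.126 and 0.107. In other tissues of air-exposed rats this row was highest in hypothalamus, at 357 normalized counts, and in hippocampus, at 210.

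The lung, the next tissue along the airway, had been sequenced from 8 air and 6 acrolein rats, and the same rows were read there. The sources used here do not state which lung and nasal samples came from the same rat. Most label numbers of the nasal samples recur among the lung samples, so the tissues may not come from separate sets of rats. The lung table was normalized on its own, and the difference between the tissues was not tested. Limma called 1 of 20052 rows in lung, or 0.00499%, and none of the nasal calls was among the called ones. Of the 115 nasal rises that were tested in lung, 85 (73.9%) had a log2 fold change above 0 there, against 49.1% of all rows tested in both tissues. An unadjusted p under 0.05 with a higher level was seen in 25 of the 115 (21.7%), against 4.4% of all rows, and none of the 115 was lower with such a p. The median lung change of the rises was 0.24, the largest was 2.27, and 13 exceeded 1. In 113 of the 115 the lung change was smaller in size than the nasal one, which choosing rows by their nasal change favours, and it was smaller in 11817 of all 19916 rows.

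ENSRNOT00000019192 went from 432 to 1177 normalized counts in lung, a log2 fold change of 1.37 with a standard error of 0.26, at an adjusted p of 0.248 (limma, Benjamini-Hochberg). ENSRNOT00000044788 averaged 1.21 in air and 0.656 after acrolein in lung. The most raised row of the nose was thus near 0 in both lung groups. Of the 12 falls, 7 had a lung change below 0, against 10131 of the 19916 rows tested in both tissues. The median over the 12 was -0.18. An unadjusted limma p under 0.05 with a lower level was seen in 2 of them, against 3.28% of all rows. In lung the log2 fold change was 0.32 for ENSRNOT00000061861 and -0.18 for ENSRNOT00000074346, both with unadjusted p above that limit.

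**Figure D4:**
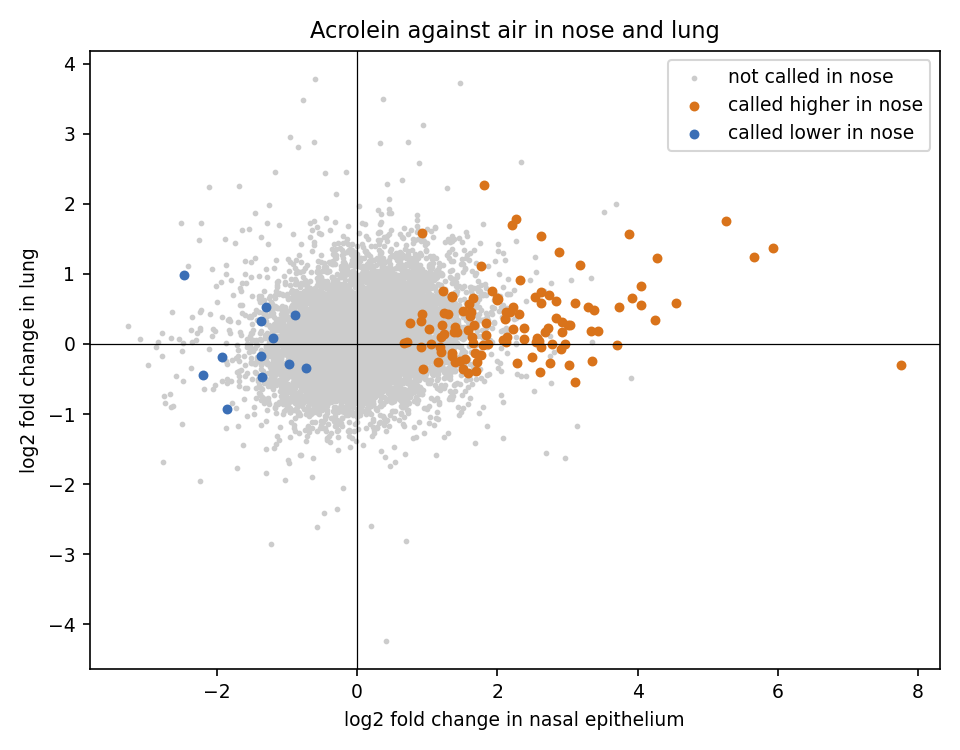
Log2 fold change between acrolein and air in lung (vertical) against that in nasal epithelium (horizontal) for the 19916 rows tested in both tables. Of the rows called higher in nose (orange), 85 of 115 lie above 0 in lung, and of those called lower (blue) 7 of 12 lie below 0. Over all 19916 rows, 9785 lie above 0 in lung and 10131 below.

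Most of the rises were found outside the nose too. In air-exposed rats, 58 of the 120 (48.3%) averaged at least 10 normalized counts in all 7 other tissues, against 56.3% of all tested rows, and 18 stayed under 10 in all 7, as did 2438 of the 20289 tested rows. Without exposure, 22 of the rises (18.3%) had a higher mean in nose than in any other tissue, against 24.8% of all rows. With the acrolein mean in place of the air mean, the nose was above the air level of the other 7 in 80 of them (66.7%), against 28.1%, a count that the choice of raised rows moves upwards. Levels set across tissues come from separately normalized tables. Among the falls, the nose was above the other 7 tissues in 7 of 12 with the nasal air mean and in 4 of 12 with the acrolein mean, and the choice of lowered rows moves the first count upwards.

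Among the rows restricted to the nose by level, counts of calls were near the background. Of the 93 nasal-restricted rows, 0 were called by limma, where 0.651% of all tested rows were, too small a share for a set of this size to tell apart from 0. An unadjusted limma p under 0.05 was seen for 2 higher and 4 lower, against 12.2% of all tested rows, while DESeq2 called 1 higher and 2 lower, against 2.43% of all rows, and edgeR called 0 higher and 0 lower. Their median log2 fold change was -0.02, with a range from -1.33 to 2.53.

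Rows restricted to other tissues differed between samples within a group, and their part in the results above was not tested. The 275 liver-restricted rows, chosen in the same way, took up 0.358% of the normalized counts of acrolein 12 and 0.0970 to 0.106% in the other exposed samples, against 0.0921 to 0.203% in air. As the median over these rows of the nasal value against the mean of air-exposed livers, acrolein 12 stood at 8308 ppm, the other exposed samples at 234 to 413 and the air samples at 89.7 to 168. The median log2 fold change of the 256 of them that were tested was 0.79 with acrolein 12 and 0.18 without it. Of the 256, 3 were called higher and 1 lower by limma, against 0.591% and 0.0591% of all tested rows. All 3 rises were highest in acrolein 12, as were 214 of the 256 tested liver-restricted rows. In that sample the 3 rises ranged from 30.5 to 134 normalized counts. All 3 were called without acrolein 12, with log2 fold changes of 2.41 to 3.84. The fall is ENSRNOT00000061861, which had a log2 fold change of -1.42 without acrolein 12.

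The 152 muscle-restricted rows took up 0.176% of acrolein 14 and 0.0499 to 0.0713% of the other exposed samples, against 0.0470 to 0.171% in air. Of these, limma called 0, edgeR called 0 and DESeq2 called 1 higher and 0 lower, against 0.651%, 0.552% and 2.43% of all rows, so that a count of 0 or 1 in limma or edgeR is near the background. The unadjusted limma p was under 0.05 for 7 higher and 4 lower, against 12.2% of all tested rows. The 379 rows that both brain regions shared, at 500 or more in each and under 1 part in 20 of that in the 5 tissues other than brain and nose, took up 1.38% of acrolein 11 and 0.777% of acrolein 14. They took up 0.214 to 0.354% of the other exposed samples and 0.238 to 0.996% of the air samples. Acrolein 11 and 14, the samples in which the rises were smallest, were thus also the exposed samples richest in rows shared with brain. Of the 379, limma called 3 higher and 0 lower, near the 0.591% and 0.0591% of all tested rows, and DESeq2 called 3 higher and 0 lower, against 1.66% and 0.762%. Their median log2 fold change was -0.46, with 304 below 0, and the unadjusted limma p was under 0.05 for 6 higher and 8 lower, against 12.2% of all tested rows.

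**Figure D5:**
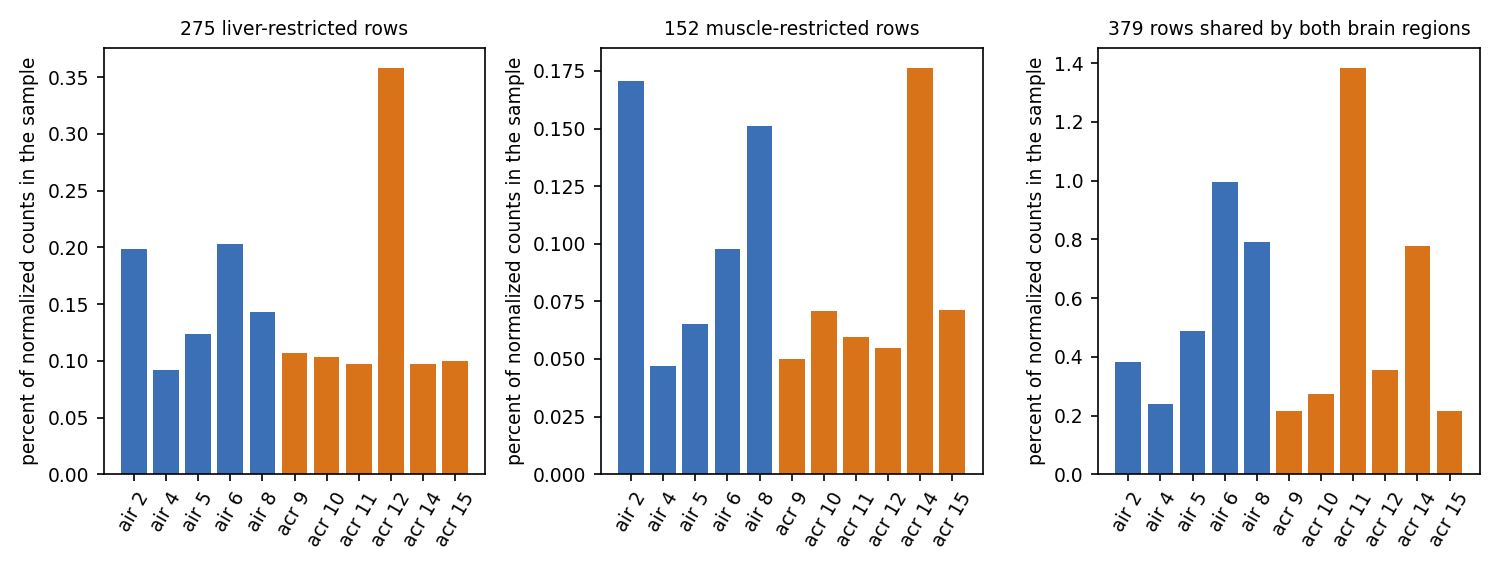
Percent of the normalized counts of each nasal sample (bars from 0, air in blue and acrolein in orange) in 275 liver-restricted rows, 152 muscle-restricted rows and 379 rows shared by both brain regions. Acrolein 12 stands out for liver rows at 0.358%, acrolein 14 is highest for muscle rows at 0.176% with air 2 next to it, and acrolein 11 is highest for brain rows at 1.38%.

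Most of the rises were also called by count models on the recovered reads. DESeq2 called 452 of the 18630 rows to which it gave an adjusted p, or 2.43%, with 310 higher (1.66%) and 142 lower (0.762%), so that 68.6% of its calls were higher. It called 117 of the 120 rises and 10 of the 12 falls. With the quasi-likelihood test of edgeR, calls numbered 112 (0.552%), of which 104 (0.513%) were higher and 8 (0.0394%) were lower, and these included 94 of the rises and 8 of the falls. In all, 93 rises were called by limma, edgeR and DESeq2. The 193 rises that DESeq2 added to those of limma had a median log2 fold change of 1.16, and the groups did not overlap in 44 of them. The 132 falls it added had a median of -0.79 with 43 that did not overlap. Over all tested rows the groups did not overlap in 0.892% with higher and 0.483% with lower values after acrolein. Calling rows on this same contrast favours such separation. Nearly all of these added rows, 192 of the 193 and 132 of the 132, had an unadjusted limma p under 0.05, against 12.2% of all tested rows. Limma, edgeR and DESeq2 read the same samples. Their shared calls are thus no separate support for the rises, the falls or the added rows. On simulated reads with 200 rows changed 4-fold, DESeq2 recovered 178 of these and also called 65 unchanged rows. Limma recovered 159 and called 15 unchanged rows, and edgeR recovered 160 and called 16.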

How the data were processed

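Frozen tissue was extracted, RNA of integrity 7 or more entered mRNA library preparation, and libraries were sequenced for 75 cycles. The paper describes these steps for liver. The authors mapped reads in Partek Flow to rn7 (submitters' notes also list R 4.1.3 and DESeq2) and deposited 1 table per tissue. The deposited values are a signal, reads counted per row divided by a size factor per sample. All values in the nasal table were whole multiples of 1 read (within 0.01), so reads were recovered, except that in air 6 a read is worth close to 1 and the step was taken from the same rule. Limma 3.58.1 in R 4.3.3 (lmFit, eBayes with a trend) was fitted to log2(value + 1), acrolein against air with no covariate, because the values are normalized. DESeq2 1.42.0 and edgeR 4.0.16 on recovered reads were alternatives, and 1878 adjusted p that DESeq2 gave as NA were left as NA. The functions were tested on simulated reads. Fold changes on this scale understate changes of rows with few counts, and floors cover counting error only. Other alternatives were the pseudocount, the filter, the scaling, sample weights, the thresholds, the letter R and each sample left out.

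Members, lists and tests were chosen with earlier results of these data known. Named rows are the 2 largest rises and 2 largest falls among called rows with separate groups and a mean of at least 20. The planned gene lists and cell type markers were not computed, because the identifiers were not paired with symbols in the tables used here. Tissue-restricted rows were defined by the mean over all samples of each tissue after the tables had been seen.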

Additional observations from a re-analysis of the deposited data

Results flagged for a closer look

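In 32 groups of values (depth, named rows, medians over the rises and falls, components and shares of tissue-restricted rows, each by exposure), 4 held a sample far from the others of its group, where chance gives about 1 in 20. The share of liver-restricted rows was 0.358% in acrolein 12, with 0.106% in the next exposed sample. The share of muscle-restricted rows was 0.176% in acrolein 14, with 0.0713% next. On the second principal component air 5 had a score of -67.6, with -5.32 in the next air sample, and acrolein 11 had a score of 130.6, with 2.57 in the next exposed sample.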

How the results depend on the processing

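The number of calls was 745 (494 higher, 251 lower) with limma's sample weights, where 66.3% of calls were higher, 452 (310 higher, 142 lower) with DESeq2 and, as an alternative chosen after the data were seen, 221 (180 higher, 41 lower) with DESeq2 without acrolein 12. It was 72 (68 higher, 4 lower) when the adjusted p limit was 0.05. In fits that left out 1 sample, calls ran from 58 to 285, rises from 57 to 247 and falls from 1 to 47. Among the 6 samples labelled with R no row was called, 0 higher and 0 lower, while 2168 had an unadjusted limma p under 0.05, and among the other 5 samples 10 were called, 10 higher and 0 lower. These subsets hold fewer samples. Without acrolein 14, 79.4% of the calls were higher. The letter R as a covariate gave 95 calls, of which 93 were among the 132. Other pseudocounts, filters, scalings, no trend, edgeR and no fold limit gave 98 to 132 calls. No direction reversed for the 4 named rows. The causes were not tested. The planned counts over gene lists were not run, since identifiers were not paired with symbols. No paired analysis was possible because no replicate number occurs in both the air and the acrolein samples.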
